A study of Caenorhabditis elegans with 12 samples.

Results

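Mitochondrial ribosomal protein genes were followed in the mRNA of whole Caenorhabditis elegans of 4 genotypes. They were taken as the genes whose identifier carries, in the WBcel235 annotation, a name beginning with mrpl- or mrps-. The annotation holds 70 such names, of which 69 were analysed among the 14326 genes of the expression matrix. The remaining gene, mrpl-42, was not analysed here. By name, 40 of the 69 encode large-subunit proteins and 29 encode small-subunit proteins, and all 69 are protein coding.

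The mitochondrial ribosome translates the few mRNAs encoded by mitochondrial DNA, most of which make subunits of the respiratory chain. Its proteins are all made from nuclear genes and imported, and they assemble on ribosomal RNAs that are transcribed in the organelle. In C. elegans, knockdown of several of these genes lengthens life and induces mitochondrial chaperones, with mrps-5 the best known case. Many of the proteins have bacterial counterparts, whereas others are known only from mitochondria.

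Each of 4 groups had 3 libraries: wild type, isp-1, isp-1;sod-3 (the sod-3 double mutant) and then isp-1;sod-5 (the sod-5 double mutant). Both double mutants carry the isp-1 mutation as well, in the gene for the Rieske protein of complex III. The sod-3 gene encodes a mitochondrial and sod-5 a cytosolic superoxide dismutase. The labels name no alleles. All worms were grown at 20 °C on NGM plates with OP50 bacteria and were collected whole as prefertile young adults. According to the design text each library combined RNA of 3 isolates out of 9 per genotype, while the pooling label of each sample reads none. The p-values below measure the spread between these libraries. In the main fit that spread is pooled over the 4 groups, so each comparison also carries the spread of groups outside it.

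The matrix gives each count scaled to 1000000 reads in genes (CPM), and the libraries held 5438798 to 155071752 such reads. Reads in the 69 genes numbered 18312 to 509402 per library, and the lowest count of any of them in any library was 88 reads. The counting error of a gene of the set on the log2 scale, taken as that of independent reads, had a median of 0.02 to 0.10 per library. In isp-1, at 0.06 to 0.08, it was about as large as the spread between replicates given further on. As a check of the labels, sod-3 stood at 18.6 to 20.7 CPM in isp-1 and at 0.148, 1.47 and 1.74 CPM in isp-1;sod-3 replicates 1 to 3. The sod-5 gene was low in all groups, at 0.0931 to 0.262 CPM in wild type and 0.115 to 0.616 CPM in isp-1. It was highest in the sod-3 double mutant, at 0.832 to 1.61 CPM, wholly above the 0 to 0.3497 CPM of isp-1;sod-5. The latter range overlaps those of wild type and isp-1, so the level does not check that label. The isp-1 transcript was present in all 12 libraries at 273 to 451 CPM, so its level does not check that label. Summed markers of body wall muscle (9611 CPM or more), intestine (3895 CPM or more) and germline (4610 CPM or more) were present in every library of these whole worms.

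One library stood apart for the genes described here. The 69 genes together reached 3888 CPM in isp-1;sod-5 replicate 3, against 3194 and 3367 CPM in replicates 1 and 2 of the same group. In that library 59 of the 69 genes had the highest value of the 3 replicates, whereas this held for 51.9% of all tested genes. Its TMM scaling factor of 1.15 was also the highest of the 12, whose others ran from 0.947 to 1.05. The nuclear ribosomal RNA gene rrn-3.1 was at 3368 CPM there, against 63709 and 47622 CPM in replicates 1 and 2 and 18065 to 71155 CPM in the other 9 libraries. In wild type rrn-3.1 ran from 18065 to 31402 CPM, below all isp-1 libraries (38751 to 71155 CPM), so the share of reads left for other genes differed too. Taking library totals without ribosomal RNA kept the median log2 change of the 69 genes in the sod-5 double mutant at 0.18 against isp-1 and at 0.16 against wild type, where it was 0.21 and 0.15 with all reads. Where leaving this library out changed which of the 69 genes were called, the calls without it are given. Some counts without it are given too.

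**Figure D1:**
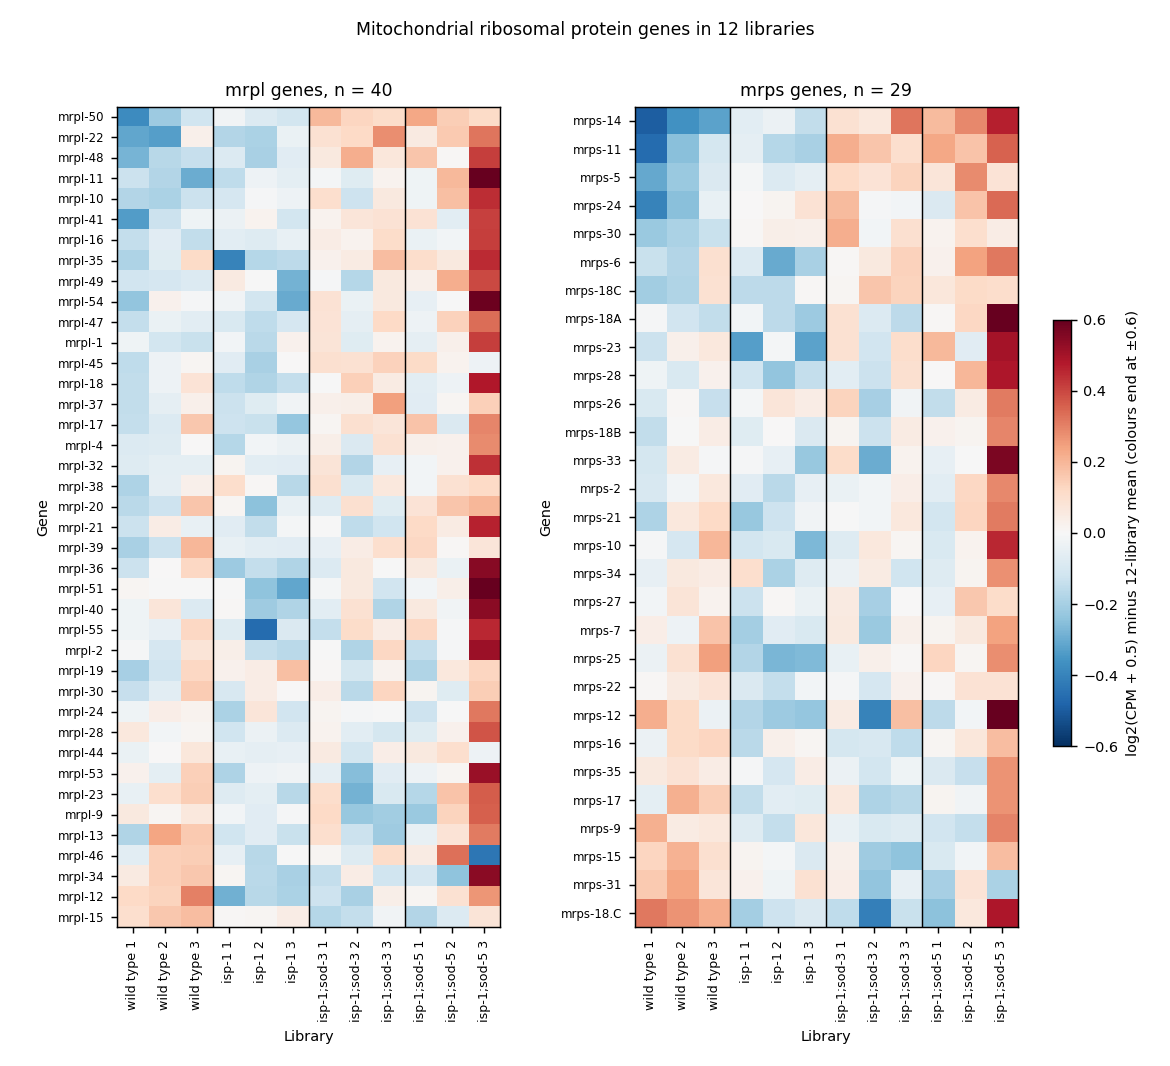
Each cell shows the log2(CPM + 0.5) of 1 gene in 1 library minus the mean of that gene over the 12 libraries, for 40 mrpl genes (left) and 29 mrps genes (right), ordered by the difference between the double mutants and wild type. isp-1;sod-5 replicate 3 is the darkest red column, and most other cells are pale; mrps-14, at the top right, goes from blue in wild type to red in both double mutants.

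Levels of the 69 genes lay close together. Over the 12 libraries the mean level per kb of exon ran from 19.3 to 157 CPM per kb, with a median of 48.9 and quartiles of 42.6 and 55.9 CPM per kb. The upper quartile was thus 1.31 times the lower one, whereas the same ratio was 14.95 over all annotated genes of the matrix. For the 82 cytosolic ribosomal protein genes it was 1.43, so a narrow middle range was not particular to this set. Cytosolic ribosomal protein genes had a median of 1756 CPM per kb and all annotated genes one of 10.4 CPM per kb. Large-subunit genes (median 49.2 CPM per kb) and small-subunit genes (48.4 CPM per kb) did not separate.

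The highest value per kb belonged to mrpl-44, a large-subunit protein of the ribonuclease III family, with group means between 152 and 162 CPM per kb. This rank is uncertain. In the annotation the span of mrpl-44 (WBGene00008514, III:9084310-9089375, minus strand) contains all of mccc-2 (III:9086744-9089375, same strand), a gene named for a subunit of methylcrotonoyl-CoA carboxylase. They share 166 exon bases, mccc-2 itself was not analysed here, and no source used here gives the gene model behind the deposited counts, so the reads of each cannot be told apart. Next came mrps-14 (90.5 CPM per kb), a small-subunit protein whose bacterial counterpart sits in the head of the subunit, and mrpl-11 (89.6 CPM per kb), whose counterpart forms the base of the ribosomal stalk. The lowest were mrps-31 (19.3 CPM per kb), mrpl-46 (24.9 CPM per kb) and mrpl-45 (28.98 CPM per kb), all without a bacterial counterpart and in the same 3 lowest ranks in every genotype. Among the higher genes the order changed with genotype: mrps-14 ranked 7 in wild type, 2 in isp-1 and in the sod-3 double mutant, and 3 in the sod-5 double mutant. The gene mrpl-12, for the stalk protein that recruits translation factors, ranked 2 in wild type, 7 in isp-1 and in the sod-3 double mutant, and 6 in the sod-5 double mutant.

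**Figure D2:**
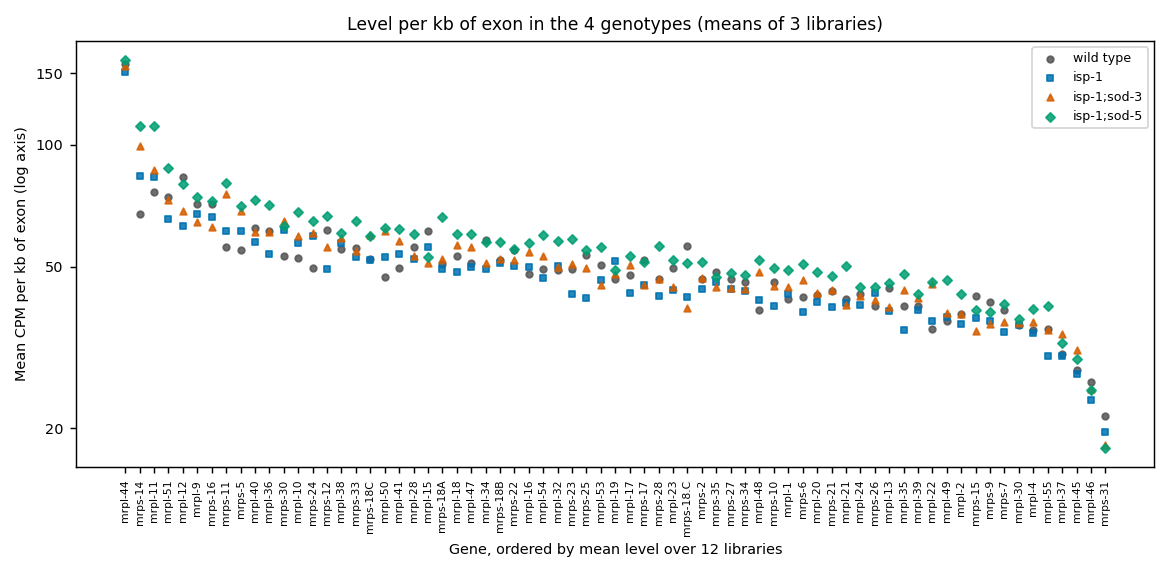
The plot gives the mean CPM per kb of exon (log axis) of each of the 69 genes in each genotype (3 libraries each), with genes ordered by their mean over all 12 libraries. Apart from mrpl-44 at the left, whose value may include reads of mccc-2, and the 3 lowest genes at the right, the genes form a narrow band around the median of 48.9 CPM per kb in all 4 genotypes.

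The sum of the 69 genes was nearly the same in wild type and isp-1. It was 3004, 3127 and 3253 CPM in wild type replicates 1 to 3, against 3054, 3013 and 3042 CPM in isp-1, so the ranges overlapped. The sod-3 double mutant had 3285, 3080 and 3266 CPM. Wild type had a mean of 3128 ± 124 CPM and isp-1 one of 3036 ± 21.1 CPM (SD, n = 3 each). The sod-3 double mutant had a mean of 3210 ± 113 CPM and the sod-5 double mutant one of 3483 ± 361 CPM (SD, n = 3 each). Leaving out mrpl-44 gave 2849 ± 114, 2769 ± 20.4, 2934 ± 96.2 and 3198 ± 372 CPM in the same order. The ratio of large-subunit to small-subunit sums stayed between 1.345 and 1.397 in all 12 libraries. Without mrpl-44 that ratio ran from 1.138 in isp-1;sod-5 replicate 2 to 1.226 in replicate 3 of the same group.

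The first comparison asks what the isp-1 mutation changes. Few mitochondrial ribosomal protein genes changed: at a limma adjusted p below 0.05, 1 of the 69 was higher in isp-1 and 2 were lower, beside 20.0% of all tested genes called (9.60% higher, 10.4% lower). With TMM factors none was higher and 3 were lower, and with median centring 2 were lower. None of the 69 was called without wild type replicate 2 or 3 or isp-1 replicate 1 or 3, and 1 was called without wild type replicate 1, isp-1 replicate 2 or replicate 1 of isp-1;sod-3. The median log2 change of the 69 genes was -0.08, beside 0.01 over all 14013 genes tested, and 18 of the 69 values were positive. With library totals taken without ribosomal RNA the median was -0.03, beside 0.05 over all genes, 28 values were positive, and mrps-30 was called higher (0.25, limma adjusted p = 0.0469) while mrps-25 was not called. Every gene of the set changed by less than 1.5-fold. The 95% intervals of 65 of the 69 log2 changes lay wholly within 1.5-fold in either direction, so larger changes than that are outside the intervals for these genes. In 24 of the 69 genes the 3 isp-1 libraries did not overlap with the 3 wild-type libraries, 18 of them lower, beside 51.7% of all tested genes (26.0% higher, 25.7% lower). SEs of the log2 changes in the set ran from 0.08 to 0.20, with a median of 0.12, beside 0.19 over all genes.

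The genes lower in isp-1 were mrpl-12 and mrps-25. For mrpl-12 (WBGene00012361, III:10707761-10708521, plus strand) wild type had 52.1, 52.6 and 59.2 CPM, whereas isp-1 had 39.1, 42.7 and 41.9 CPM. All 3 isp-1 libraries lay below all wild-type libraries, with a log2 change of -0.40 (SE 0.10, limma adjusted p = 0.0182), which is 1.32-fold lower. The call was lost without wild type replicate 2 or 3 or isp-1 replicate 1 or 3, with limma adjusted p between 0.0525 and 0.0802. For mrps-25 (WBGene00021920, IV:1056892-1057619, plus strand), a small-subunit protein known only from mitochondria, wild type had 30.6, 33.4 and 37.2 CPM and isp-1 had 27.7, 25.8 and 26.0 CPM. The groups did not overlap, and the log2 change was -0.34 (SE 0.11, limma adjusted p = 0.0417). It was no longer called without any 1 of the 6 libraries compared or without isp-1;sod-3 replicate 1 (limma adjusted p between 0.0532 and 0.157).

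The 1 gene higher in isp-1 was mrps-14 (WBGene00011334, II:10240277-10242490, minus strand). Wild type had 46.3, 50.8 and 52.3 CPM, and isp-1 had 62.7, 63.9 and 59.0 CPM. No wild-type library reached the lowest isp-1 library, and the log2 change was 0.31 (SE 0.10, limma adjusted p = 0.0487). The call stood close to the threshold and was lost without any 1 of the 6 libraries compared, replicate 1 of the sod-3 double mutant or replicate 2 of the sod-5 double mutant (limma adjusted p between 0.0569 and 0.174).

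The other extremes did not pass the main test. The largest negative value was that of mrps-18.C (WBGene00020499, a different gene from mrps-18C), at -0.41 (SE 0.16, limma adjusted p = 0.0904). That gene was called lower with TMM factors (limma adjusted p = 0.0307), with median centring (0.0316) and with compared groups only (0.00315). It was also called lower without isp-1;sod-5 replicate 1 (0.0430) or 3 (0.0263), by edgeR (adjusted p = 0.0310) and by DESeq2 (0.0217). The next positive values were those of mrps-24 (0.27, adjusted p = 0.167) and mrps-30 (0.21, adjusted p = 0.0993). With compared groups only both were called higher (0.0463 and 0.0204), and mrps-12 (0.0174) and mrpl-34 (0.0477) lower. For mrps-5 wild type had 75.5, 80.1 and 88.2 CPM and isp-1 had 92.7, 88.4 and 90.3 CPM. The groups did not overlap, but the log2 change of 0.16 (SE 0.09) did not pass (limma adjusted p = 0.250). For mrpl-44 wild type had 269.3, 277 and 290 CPM, just above the 268.6, 267 and 267 CPM of isp-1, with a log2 change of -0.06 (limma adjusted p = 0.683).

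In these bulk samples fewer cells of a type and less RNA per cell cannot be told apart. Sperm transcripts moved with the isp-1 comparison: 22 of 30 major sperm protein genes and 14 of 16 other sperm genes were lower in isp-1 and none was higher. Those counts dropped to 4 or fewer major sperm protein genes without any 1 wild-type library or isp-1 replicate 1 or 3, and to 12 without isp-1;sod-3 replicate 1. Of the other sperm genes 3 to 7 were called without any 1 wild-type library or isp-1 replicate 1 or 3. The summed level of the lists was 891 to 1096 CPM and 306 to 317 CPM in wild type, against 365 to 478 CPM and 117 to 161 CPM in isp-1. For isp-1;sod-3 the sums were 252 to 907 CPM and 98.2 to 276 CPM, and in isp-1;sod-5 they were 403 to 703 CPM and 115 to 171 CPM. Of other markers in isp-1 against wild type, 2 of 20 germline genes were lower, none of 15 oocyte and none of 14 body wall muscle genes was called, 1 of 13 intestinal genes was higher and 2 were lower, and of 130 collagens 19 were higher and 20 lower. The part of these cells in the values above was not tested. Of all tested genes, 9.60% were higher and 10.4% lower in isp-1 than in wild type.

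**Figure D3:**
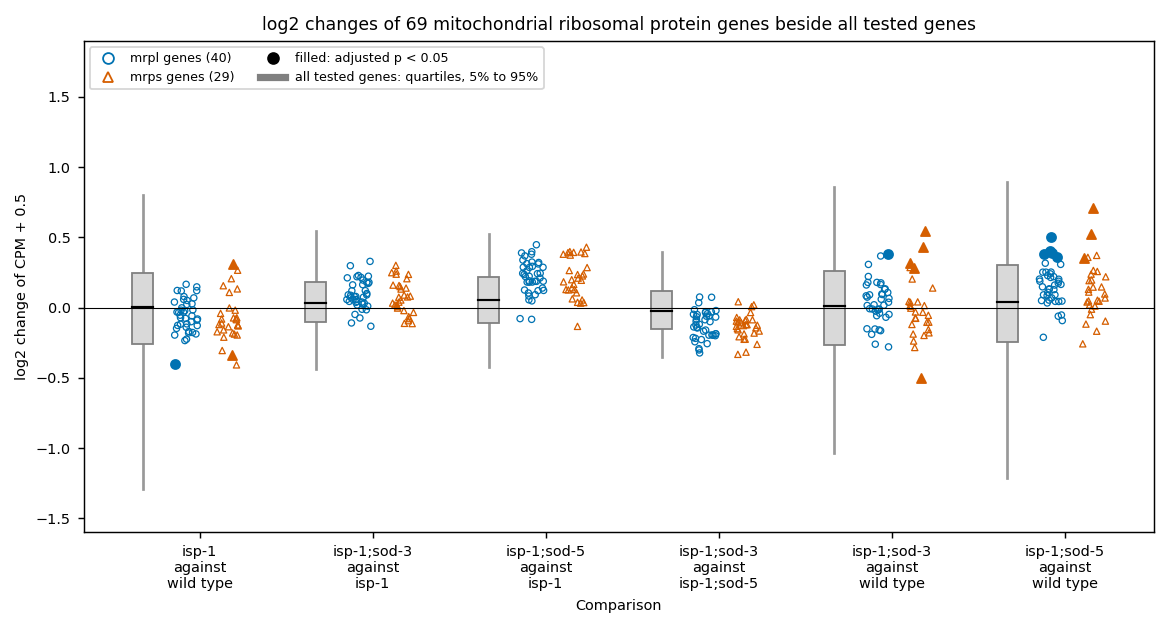
For each comparison the blue circles (40 mrpl genes) and orange triangles (29 mrps genes) give log2 changes of CPM + 0.5, filled where the limma adjusted p was below 0.05, beside a grey box and line for the quartiles and the 5% to 95% range of all 14013 tested genes. Filled symbols appear in the comparisons with wild type and in none of the other 3, and the cloud of isp-1;sod-5 against isp-1 lies above 0.

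The next comparisons ask what the loss of sod-3 or sod-5 adds to the isp-1 mutation. For sod-3 no gene of the 69 was called, beside 1.08% of all tested genes (0.557% higher, 0.528% lower), and none was called by edgeR or DESeq2 either. At an unadjusted p below 0.05 there were 8, beside 1217 of all 14013 tested genes. The median log2 change was 0.08, beside 0.03 over all genes, and 55 of the 69 values were positive. Values ran from -0.13 to 0.33, and 68 of 69 intervals lay within 1.5-fold. The largest positive values were those of mrpl-35 (0.33, limma adjusted p = 0.492), mrps-11 (0.30, adjusted p = 0.327) and mrpl-22 (0.30, adjusted p = 0.473). The largest negative ones were those of mrpl-15 (-0.13, adjusted p = 0.759), mrps-31 (-0.11, adjusted p = 0.845) and mrps-15 (-0.11, adjusted p = 0.844). In 22 of the 69 genes the groups did not overlap, 20 of them higher in isp-1;sod-3, beside 15.6% of all tested genes (8.79% higher, 6.77% lower). Cytosolic ribosomal protein genes leaned the same way in this comparison, with 81 of 82 values positive and a median log2 change of 0.14.

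For sod-5 too no gene of the 69 was called, beside 1.21% of all tested genes (0.642% higher, 0.564% lower), and again none was called by edgeR or DESeq2. At an unadjusted p below 0.05 there were 22, beside 1659 of all 14013 tested genes. Here 66 of the 69 values were positive and the median log2 change was 0.21, beside 0.05 over all genes. Much of this rested on isp-1;sod-5 replicate 3, without which the median was 0.12, 59 values were positive and 10 had an unadjusted p below 0.05. The count over all tested genes at that unadjusted p in the same fit is not given here. With TMM factors the median was 0.13 and 59 values were positive. The groups did not overlap in 32 genes, all higher in isp-1;sod-5, beside 16.8% of all tested genes (11.0% higher, 5.82% lower). Over the other 2 libraries the groups did not overlap in 34 genes that were higher and 1 that was lower, beside 15.5% and 14% of all tested genes. The largest values were those of mrpl-35 (0.45, limma adjusted p = 0.178), mrps-23 (0.43, adjusted p = 0.270) and mrps-18A (0.40, adjusted p = 0.294), which without replicate 3 were 0.33, 0.28 and 0.20. The lowest were those of mrps-31 (-0.13, limma adjusted p = 0.677), mrpl-15 (-0.08, adjusted p = 0.772) and mrpl-19 (-0.08, adjusted p = 0.837). The level of mrps-18A is uncertain, since its exons share 195 bases on the same strand with iglr-2. Only 52 of the 69 intervals lay within 1.5-fold, so larger differences are less well bounded than in the isp-1 comparison. The upward lean was not particular to the set, since 81 of 82 cytosolic ribosomal protein genes were positive too. Their median log2 change was 0.32, and it ran from 0.19 to 0.39 over the 12 fits that left out 1 library.

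Set against each other, the double mutants showed no called gene among the 69, beside 0.107% of all tested genes (0.0285% higher and 0.0785% lower in isp-1;sod-3). None was called by edgeR or DESeq2, and 2 had an unadjusted p below 0.05, beside 528 of all 14013 tested genes. The median log2 difference, isp-1;sod-3 minus isp-1;sod-5, was -0.12, beside -0.03 over all genes, and 6 values were positive. Without isp-1;sod-5 replicate 3 the median was -0.03, 26 values were positive and none had an unadjusted p below 0.05. The lowest values were those of mrps-18.C (-0.33), mrpl-11 (-0.32) and mrps-18A (-0.32), each with a limma adjusted p of 0.920. The highest were those of mrpl-37 (0.08, adjusted p = 0.927), mrpl-45 (0.07, adjusted p = 0.924) and mrps-30 (0.04, adjusted p = 0.945). In 3 genes the groups did not overlap, all lower in isp-1;sod-3, beside 5.22% of all tested genes (1.96% higher, 3.27% lower). Without isp-1;sod-5 replicate 3 they did not overlap in 4 higher and 4 lower genes, beside 5.87% and 4.57% of all tested genes. Of the 82 cytosolic ribosomal protein genes 1 had a positive value here, and their median log2 difference was -0.18.

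Against wild type a few of the 69 genes were called in the double mutants, in smaller shares than among all tested genes. These comparisons share the wild-type libraries with the isp-1 comparison and with each other. In isp-1;sod-3, 5 of the 69 genes were higher and 1 was lower than in wild type, beside 17.0% of all tested genes called (10.4% higher, 6.57% lower). With TMM factors 3 were higher and 3 lower, and with median centring 1 was higher and 1 lower. The count called was 1 without wild type replicate 1 or isp-1;sod-3 replicate 1, 3 without wild type replicate 2 and 11 without isp-1;sod-5 replicate 3. The genes gained in the last of these fits were mrpl-22 and mrpl-48, higher, and mrpl-12, mrpl-15 and mrps-15, lower. Their limma adjusted p lay between 0.0257 and 0.0426. The median log2 change was 0.01, the same as over all genes to this precision, with 36 positive values. It fell on the other side of 0 with TMM factors (-0.01) and with median centring (-0.02). In isp-1;sod-5, 8 genes were higher and none was lower, beside 24.3% of all tested genes called (14.1% higher, 10.2% lower). With TMM factors 3 were higher and 2 lower, the latter being mrpl-15 and mrps-31, and with median centring 3 were higher. The count was 3 without wild type replicate 1 or 2. There the median was 0.15, beside 0.04 over all genes, with 59 positive values. With TMM factors it was 0.05 with 42 positive values. Without isp-1;sod-5 replicate 3 it was 0.04 with 43, and 6 genes were higher and 1 lower, beside 22.7% of all tested genes called. The lower one was mrpl-15 (-0.28, limma adjusted p = 0.0307), mrps-30 was then called higher (0.24, adjusted p = 0.04996), and mrpl-10, mrpl-22 and mrpl-48 were not called. Groups did not overlap in 23 genes for isp-1;sod-3, 14 higher and 9 lower, beside 39.8% of all tested genes (22.0% higher, 17.8% lower). For isp-1;sod-5 they did not overlap in 17, 16 higher and 1 lower, beside 42.3% (23.7% higher, 18.6% lower). Without isp-1;sod-5 replicate 3 they did not overlap in 17 higher and 7 lower genes, beside 29.1% and 27.5% of all tested genes.

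The small-subunit gene mrps-14 had the largest change of the set. It stood at 69.7, 68.3 and 81.8 CPM in the sod-3 double mutant and at 74.8, 80.0 and 90.6 CPM in isp-1;sod-5, all above the wild-type range of 46.3 to 52.3 CPM. The log2 change from wild type was 0.55 (SE 0.10, limma adjusted p = 0.00287) in isp-1;sod-3 and 0.71 (SE 0.10, limma adjusted p = 0.000404) in isp-1;sod-5. The latter, 1.63-fold, was the only change of 1.5-fold or more among the 69 genes in the 6 comparisons. Both calls held in each of the 12 fits that left out 1 library and in the 11 other settings tried. Against isp-1 itself the values for mrps-14 were 0.24 (limma adjusted p = 0.521) and 0.40 (limma adjusted p = 0.0948), which did not pass.

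A further 3 genes were higher in both double mutants than in wild type. The first, mrps-11 (WBGene00012244, V:12493239-12494622, minus strand), encodes a protein whose bacterial counterpart lies on the platform of the small subunit. It had 37.2, 43.2 and 47.7 CPM in wild type. The sod-3 double mutant had 59.9, 57.8 and 55.2 CPM and the sod-5 double mutant 60.5, 57.9 and 66.0 CPM, all above wild type. The log2 changes were 0.43 (SE 0.10, limma adjusted p = 0.0129) and 0.53 (SE 0.10, limma adjusted p = 0.00358). The first was no longer called without wild type replicate 1 (limma adjusted p = 0.0674) or isp-1;sod-3 replicate 1 (0.0510), while the second held in all 12 such fits. The exons of mrps-11 overlap those of inx-11 on the other strand by 31 bases.

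The second, mrpl-50 (WBGene00011883, II:8929841-8930940, plus strand), encodes a large-subunit protein known only from mitochondria. Wild type had 42.7, 47.7 and 51.2 CPM, isp-1;sod-3 had 63.6, 60.7 and 59.96 CPM and isp-1;sod-5 had 65.3, 61.6 and 60.3 CPM. Both double mutants lay wholly above wild type, by a log2 change of 0.38 (SE 0.09, limma adjusted p = 0.0122) and 0.40 (SE 0.09, limma adjusted p = 0.00718). The isp-1;sod-3 call was lost without wild type replicate 1 (limma adjusted p = 0.0651) or isp-1;sod-3 replicate 1 (0.0501). In the sod-5 double mutant the call was lost with TMM factors (limma adjusted p = 0.0617) and with median centring (0.0970).

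The third was mrps-5 (WBGene00008452, V:12563487-12565801, plus strand). It rose from the wild-type 75.5, 80.1 and 88.2 CPM to 101.6, 99.0 and 102.8 CPM in isp-1;sod-3 and 98.5, 114.0 and 99.0 CPM in isp-1;sod-5. The log2 changes were 0.32 (SE 0.09, limma adjusted p = 0.0292) and 0.35 (SE 0.09, limma adjusted p = 0.0140). The isp-1;sod-3 call was lost without wild type replicate 1 or 2 or replicate 1 or 2 of isp-1;sod-3 (limma adjusted p between 0.0597 and 0.123), and the isp-1;sod-5 call without wild type replicate 1 (0.0674) or 2 (0.0555). Both were also lost with TMM factors (limma adjusted p = 0.0794 and 0.105).

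**Figure D4:**
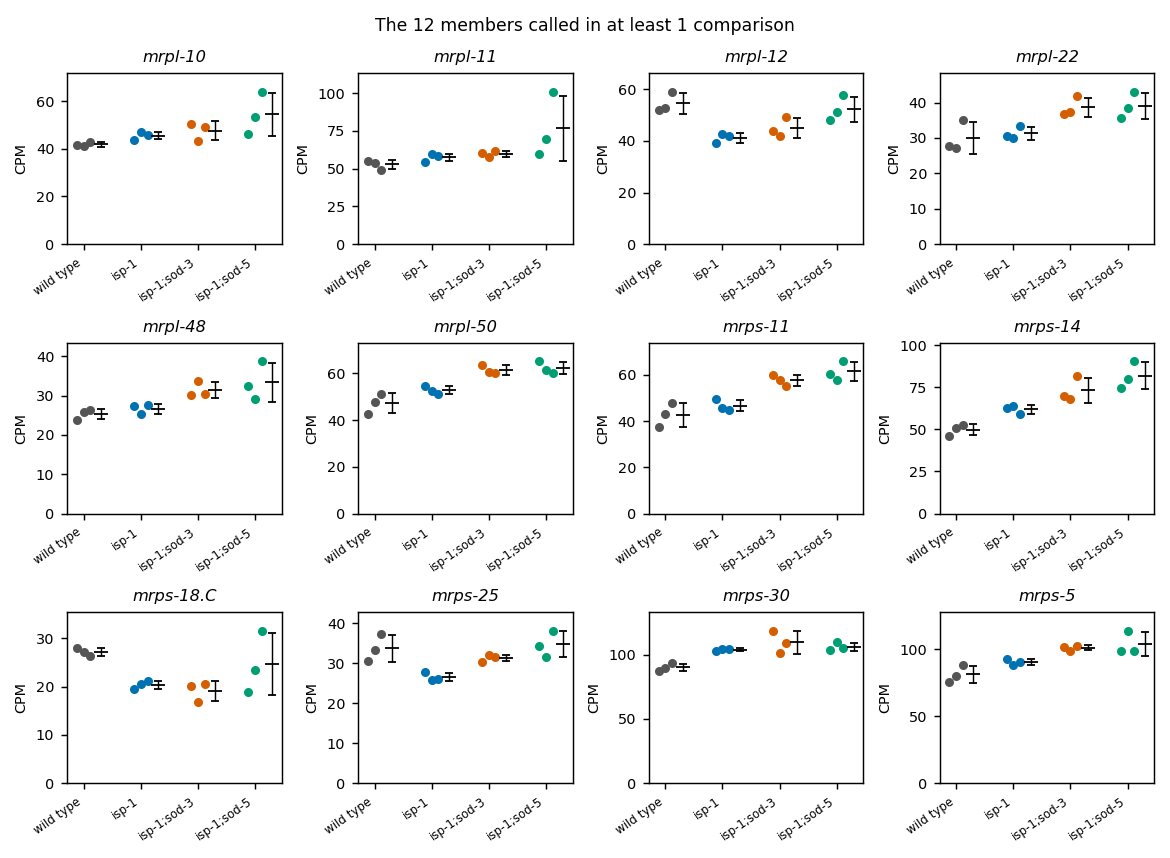
Each panel gives the CPM of 1 gene in the 12 libraries, with a point per library and the mean ± SD of the 3 libraries of each genotype beside it, for the 12 genes called in at least 1 comparison. In mrps-14, mrps-11, mrpl-50 and mrps-5 both double mutants lie wholly above wild type, whereas in mrpl-11 and mrpl-10 the top isp-1;sod-5 point stands well above the other 2.

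The remaining calls were each made in 1 double mutant. In isp-1;sod-3, mrps-30 (WBGene00044321, I:10636692-10638966, minus strand), whose mammalian relative sits in the large subunit in spite of its name, had 118.7, 101.0 and 109.1 CPM against 87.4, 89.4 and 93.1 CPM in wild type. That change of 0.28 (SE 0.08, limma adjusted p = 0.0354) was lost without any 1 of the wild-type and isp-1 libraries or isp-1;sod-3 replicate 1 (limma adjusted p between 0.0527 and 0.138). In isp-1;sod-5 its value was 0.24 (limma adjusted p = 0.0530). The 1 gene lower than wild type was mrps-18.C (II:6736203-6736783, plus strand), of the family of bacterial protein S18. It had 28.1, 27.2 and 26.3 CPM in wild type, against 20.2, 16.8 and 20.5 CPM in isp-1;sod-3, a log2 change of -0.50 (SE 0.16, limma adjusted p = 0.0475). This call held in 3 of the 12 fits that left out 1 library, namely those without replicate 3 of the sod-3 double mutant or replicate 1 or 3 of the sod-5 double mutant, and in the others the limma adjusted p lay between 0.0561 and 0.150. In isp-1;sod-5 the gene spread from 18.9 to 31.6 CPM, overlapping wild type.

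Another 4 large-subunit genes were called in isp-1;sod-5 alone. For mrpl-11 (WBGene00015133, III:8717644-8718567, plus strand) wild type had 55.3, 53.6 and 49.3 CPM and isp-1;sod-5 had 59.5, 69.5 and 101 CPM, a log2 change of 0.50 (SE 0.15, limma adjusted p = 0.0271). It was lost without any 1 of the wild-type libraries (limma adjusted p between 0.0603 and 0.0911). For mrpl-10 (WBGene00010458, II:8277578-8278515, minus strand), whose bacterial counterpart anchors the stalk proteins, the values were 41.7, 41.2 and 43.1 CPM and 46.3, 53.5 and 64.2 CPM, a change of 0.36 (SE 0.12, limma adjusted p = 0.0366). In both genes replicate 3 was the highest isp-1;sod-5 library. Without it the log2 change of mrpl-11 was 0.29 (limma adjusted p = 0.0462) and that of mrpl-10 was 0.24, which was not called (limma adjusted p = 0.0970). The mrpl-10 call was not made either without any 1 of the wild-type and isp-1 libraries or isp-1;sod-5 replicate 2 (0.0508 to 0.1098).

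For mrpl-22 (WBGene00012645, III:10615466-10617859, plus strand), whose bacterial counterpart lines the exit tunnel, wild type had 27.6, 27.2 and 35.1 CPM and isp-1;sod-5 had 35.7, 38.4 and 43.1 CPM. The change of 0.38 (SE 0.12, limma adjusted p = 0.0364) was lost without wild type replicate 1 or 2, isp-1 replicate 1 or isp-1;sod-5 replicate 2 or 3 (0.0524 to 0.145). For mrpl-48 (WBGene00016989, V:5593706-5594503, plus strand), known only from mitochondria, wild type had 23.8, 25.7 and 26.2 CPM and isp-1;sod-5 had 32.5, 29.1 and 38.8 CPM. Its change of 0.39 (SE 0.12, limma adjusted p = 0.0300) was lost without any 1 of the wild-type libraries or isp-1;sod-5 replicate 1 or 3 (0.0536 to 0.108). In isp-1;sod-3 both genes also lay above wild type in all libraries, at 0.37 (limma adjusted p = 0.0535) for mrpl-22 and 0.31 (limma adjusted p = 0.0891) for mrpl-48. With TMM factors mrpl-22 (limma adjusted p = 0.107), mrpl-48 (0.0825) and mrpl-10 (0.0506) were not called. Whether the double mutants differ from each other at any of these 4 genes was tested directly, and the limma adjusted p was 0.920 or more. The lowest values in isp-1;sod-5 against wild type were those of mrps-31 (-0.26), mrpl-15 (-0.21) and mrps-18.C (-0.17), none of which passed.

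In all, 12 of the 69 genes were called in at least 1 of the 6 comparisons and 57 in none. The matching count over all tested genes is not given here. Of all tested genes, 20.0% were called for isp-1 against wild type. That share was 17.0% for the sod-3 double mutant against wild type, and 24.3% for the sod-5 double mutant. In isp-1;sod-5 against wild type 5 of 40 large-subunit and 3 of 29 small-subunit genes were called, all higher, with median log2 changes of 0.16 and 0.11. In isp-1;sod-3 against wild type 1 of the 40 was higher, and of the 29 the calls were 4 higher and 1 lower, with medians of 0.03 and -0.03. Subunits are taken by name, and these 4 include mrps-30, whose mammalian relative sits in the large subunit. In isp-1 against wild type 1 of the 40 was lower, and of the 29 the calls were 1 higher and 1 lower, with medians of -0.06 and -0.11. Of 43 genes with a bacterial counterpart and 26 without, 6 and 2 were higher in isp-1;sod-5 than in wild type, with medians of 0.15 and 0.14. In the sod-3 double mutant 3 of the 43 were higher and 1 was lower, and 2 of the 26 were higher. In isp-1 against wild type the medians were -0.10 and -0.07. Differences between these subsets were not tested. The replicates of a genotype agreed more closely for the 69 genes than for all genes: the median within-group SD on the log2 scale was 0.09 against 0.12 for wild type, 0.07 against 0.13 for isp-1, 0.09 against 0.22 for the sod-3 double mutant and 0.21 against 0.27 for the sod-5 double mutant. All genes were not matched to the set in level, where the medians were 10.4 and 48.9 CPM per kb. The part of level and counting error in this difference was not tested.

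The positions of these genes differed from those of protein-coding genes at large. None of the 69 lies on the X chromosome, which holds 13.9% of the protein-coding genes of the matrix, and 22 (31.9%) lie on chromosome III, beside 15.7% of those genes. A same-strand protein-coding neighbour within 200 bases, the spacing typical of C. elegans operons, was present for 39 of the 69 genes (56.5%), beside 25.7%. The neighbours of these 39 genes that were tested, 36 in number, included none higher and 1 lower in isp-1 than in wild type. Of the same neighbours 1 was higher and 1 lower in isp-1;sod-3 than in wild type, and 3 were higher and 1 lower in isp-1;sod-5. In the 3 comparisons without wild type no neighbour was called, beside 0.107% to 1.21% of all tested genes. Exons of 19 genes overlap another gene, 6 on the same strand and 13 on the other. The kit is described as stranded, but no source used here gives the strand setting of the count, so reads in these stretches cannot be assigned with certainty. The same-strand cases other than mrpl-44 and mrps-18A are mrps-16, mrps-27, mrpl-1 and mrps-15, none of which was called, and mrpl-12 and mrpl-10 have short overlaps of 53 and 44 bases on the other strand.

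Cytosolic ribosomal protein genes were lower in isp-1 more often than mitochondrial ones, a difference that was not itself tested. Among 82 cytosolic ribosomal protein genes, 46 were lower in isp-1 than in wild type and none was higher, with a median log2 change of -0.42. Their sum was 83813, 90128 and 101425 CPM in wild type, above the 69462, 68258 and 68544 CPM of isp-1. The fall was seen in rpl-2 (1481 ± 74.4 to 928 ± 25.9 CPM, SD, n = 3, limma adjusted p = 0.00325), rps-6 and rps-2. The number called was sensitive to single libraries, at 6 without wild type replicate 3 or isp-1 replicate 3, 7 without wild type replicate 2, 9 without isp-1 replicate 1 and 12 without isp-1 replicate 2, while the median stayed between -0.48 and -0.34. The mean log2 deviation of the cytosolic genes was highest in isp-1;sod-5 replicate 3, but wild type replicate 3 was almost as high. By sum the cytosolic genes were slightly lower in isp-1;sod-5 replicate 3 (100699 CPM) than in wild type replicate 3 (101425 CPM). The mitochondrial set differed more between these libraries, at 3888 CPM in isp-1;sod-5 replicate 3 and 3253 CPM in wild type replicate 3. Within isp-1;sod-5, however, replicate 3 was the highest library for both sets. There the cytosolic sums were 80067, 77418 and 100699 CPM in replicates 1 to 3, and the mitochondrial ones 3194, 3367 and 3888 CPM. In isp-1;sod-3 the median cytosolic change from wild type was -0.28, with 6 of the 82 genes lower and none higher, and 20 were lower with TMM factors. That count was 0 without wild type replicate 3 or isp-1;sod-3 replicate 1, 1 without wild type replicate 2 or isp-1;sod-3 replicate 2, 14 without isp-1;sod-3 replicate 3, 12 without replicate 2 of the sod-5 double mutant and 42 without its replicate 3. In isp-1;sod-5 the median was -0.10, with 1 gene lower and none higher. Without its replicate 3 the median was -0.22 and 29 were lower, with TMM factors 4 were lower, with isp-1;sod-3 replicate 2 left out 2 were, and without any 1 wild-type library or replicate 1 or 2 of isp-1;sod-5 none was lower.

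Genes that serve mitochondrial translation in other ways leaned upwards. Of 10 tested genes for mitochondrial translation factors and ribosome assembly, 3 were higher in isp-1 than in wild type and none was lower. They were tsfm-1 and tufm-1, which encode elongation factors Ts and Tu, and gfm-1, which encodes elongation factor G. For tsfm-1 wild type had 47.4, 48.8 and 55.5 CPM, whereas isp-1 had 83.4, 90.5 and 79.0 CPM. That log2 change of 0.73 (SE 0.10, limma adjusted p = 0.000299) was larger than that of any of the 69 ribosomal protein genes. The changes of tufm-1 (0.29, adjusted p = 0.0287) and gfm-1 (0.32, adjusted p = 0.0297) were smaller. Without any 1 of the wild-type and isp-1 libraries, and with TMM factors, 1 gene of this list was called, while 5 were called without isp-1;sod-5 replicate 3. Of the 10, 4 were higher than in wild type in the sod-3 double mutant and 6 in the sod-5 double mutant, and none was lower in either. All tested genes were called higher at 9.60% in isp-1, 10.4% in the sod-3 double mutant and 14.1% in the sod-5 double mutant.

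Of 12 tested genes for mitochondrial aminoacyl-tRNA synthetases, which charge the tRNAs, 3 were higher in isp-1 and none was lower. These were nars-2 (0.40, limma adjusted p = 0.0173), lars-2 (0.44, adjusted p = 0.0178) and ears-2 (0.41, adjusted p = 0.0413). None of the list was called without wild type replicate 1 or isp-1 replicate 1 or 2, 1 was called without wild type replicate 2 or 3 or isp-1 replicate 3, and 5 were called without isp-1;sod-5 replicate 3. Of 6 genes for mitochondrial DNA maintenance and transcription 1 was higher, polg-1, the mitochondrial DNA polymerase (26.8 ± 2.06 to 43.0 ± 1.38 CPM, SD, n = 3, limma adjusted p = 0.00392). The count was 2 without isp-1 replicate 2, sod-3 double mutant replicate 3 or sod-5 double mutant replicate 2, and 3 without sod-5 double mutant replicate 3. Of 11 genes of the mitochondrial unfolded protein response 8 were higher in isp-1, and in each double mutant 8 were higher than in wild type. In isp-1 the count was 5 without wild type replicate 2 or 3 or isp-1 replicate 1 or 3. The chaperone hsp-6 went from 747 ± 38.6 CPM in wild type to 1152 ± 11.6 CPM in isp-1 (SD, n = 3, limma adjusted p = 0.000504).

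**Figure D5:**
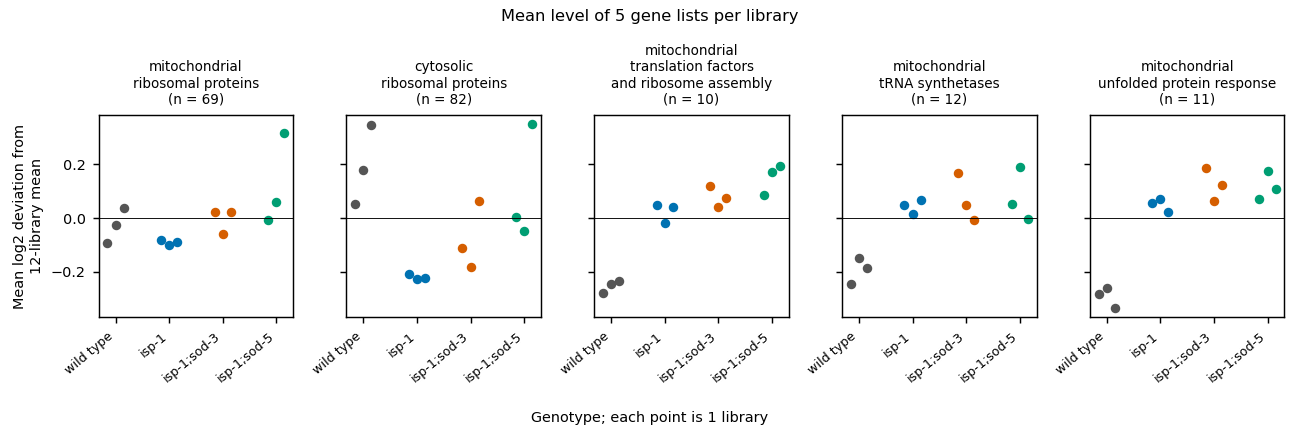
Each point gives, for 1 library, the mean over a list's genes of log2(CPM + 0.5) minus the gene's mean over the 12 libraries. Wild type lies lowest in the lists of translation factors, tRNA synthetases and the unfolded protein response, whereas the mitochondrial ribosomal proteins of wild type and isp-1 overlap in their ranges and isp-1;sod-5 replicate 3 is the highest point in that panel.

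The dap-3 gene encodes a small-subunit protein that binds GTP in mammals and lies outside the naming rule. It had 57.7, 59.3 and 67.6 CPM in wild type, against 61.4, 65.1 and 67.5 CPM in isp-1 (log2 change 0.07, SE 0.09, limma adjusted p = 0.625). In isp-1;sod-5 it had 72.3, 78.3 and 75.9 CPM and was higher than in wild type (0.30, limma adjusted p = 0.0311). The ribosomal RNAs of the organelle were also present in the matrix, although the libraries select mRNA. The larger of these genes (WBGene00014472, MtDNA:10403-11354) had 44.4, 77.7 and 19.4 CPM in wild type, against 147, 239 and 132 CPM in isp-1, a log2 change of 2.02 (SE 0.54, limma adjusted p = 0.0286). The smaller one (WBGene00014454, MtDNA:898-1593) had 46.3, 113 and 16.2 CPM and 130, 191 and 80.3 CPM, a change of 1.51 that did not pass (SE 0.73, limma adjusted p = 0.181). Both spread widely within groups. In isp-1;sod-3 the larger had 41.2, 28.5 and 18.8 CPM, and in isp-1;sod-5 it had 50.4, 98.7 and 162 CPM. Both ranges overlapped wild type, and that of isp-1;sod-5 also reached the isp-1 range. Neither change from wild type passed (limma adjusted p = 0.546 and 0.143).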

How the data were processed

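Whole-worm mRNA of 4 genotypes, 3 libraries each, had been sequenced from a stranded kit. Per the submitters' processing notes, the WBcel235 build, R 3.3.0 with edgeR 3.14.0, featureCounts 1.4.6, Subread 1.5.0, FastQC 0.11.3 and bcl2fastq 2.17.1.14 were used, with no roles given. The values are CPM, read counts per gene scaled to 1000000, in 1 matrix, as deposited by the authors. All 14326 genes exceed 1 CPM in at least 2 libraries. Multiples of the CPM of 1 read gave whole reads within 0.001 for 100% of values, at 5438798 to 155071752 reads per library.

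Genes were named from the Ensembl WBcel235 annotation, which held 14250 of the 14326 identifiers and named 13808. The members and the gene lists were chosen with earlier results of these data known. The main test was limma 3.58.1 (R 4.3.3, moderated with trend and robust settings) on log2(CPM + 0.5), with all 12 libraries in 1 fit and the 14013 genes above 1 CPM in at least 3 libraries. All p-values are two-sided and adjusted by Benjamini-Hochberg over all tested genes, with calls at an adjusted p below 0.05 in 6 comparisons. Fold changes on this scale understate those of low genes.

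Alternatives were no filter, pseudocounts of 0.1 and 1, TMM factors, median centring, replicate block, compared groups only, each library left out, and, on the whole reads, DESeq2 1.42.0 or the quasi-likelihood test of edgeR 4.0.16. In isp-1 against wild type edgeR called 3010, DESeq2 3388 and limma 2798 of all genes. TMM factors with isp-1;sod-5 replicate 3 left out, and library totals without nuclear ribosomal RNA genes, were added after seeing the data. Named genes were all members called, the 3 highest and 3 lowest changes of each comparison, the 3 highest and 3 lowest levels per kb, mrps-5, mrpl-12, dap-3, and up to 3 genes of each list with the smallest adjusted p in isp-1 against wild type. Further names (members called or lost in an alternative, overlapping genes) were chosen after their values were seen. The fit was tested on simulated data. Whether libraries came from separate cultures rests on the design text. With 3 libraries against 3, an exact permutation test of 1 gene cannot go below p = 0.1, so none is used for calls.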

Additional observations from a re-analysis of the deposited data

How the results depend on the processing

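No call made for 1 of the 69 genes changed direction under the alternatives run. Calls lost when a library was left out, and some others, are given beside each gene. The number called in isp-1 against wild type was 3, and it was 1 with the replicate block, 8 with compared groups only and 0 to 4 when each library was left out. In isp-1;sod-3 against wild type it was 6, then 2 with median centring and 1 to 11 over the fits that left out a library. For isp-1;sod-5 against wild type it was 8, then 5 with TMM factors, 3 with median centring, 3 with compared groups only and 3 to 10 when each library was left out. The cause was not tested. With edgeR 4 genes were higher and 2 lower in isp-1;sod-5, and with DESeq2 6 were higher and 2 lower. In isp-1;sod-3 the numbers were 3 and 4 with edgeR, and 4 and 4 with DESeq2. In the 3 comparisons without wild type the count was 0 in every setting run. Same-numbered libraries did not deviate together: over 18 pairs the correlation of deviations ran from -0.545 to 0.329 and 5 exceeded 0.1, so the numbers were not taken as pairs. With the replicate block the 6 counts were 1, 0, 0, 0, 4 and 6. Depth differed 28.5-fold between libraries, and the lowest count of a member was 88 reads. Further calls were lost at limma adjusted p-values that follow. In isp-1 against wild type mrps-14 was at 0.0530 with TMM factors, and with median centring mrps-14 was at 0.0941 and mrps-25 at 0.102. For mrps-25 the value was 0.0592 with library totals taken without ribosomal RNA, a setting chosen after seeing the data, under which the median log2 change was -0.0328. In isp-1;sod-3 against wild type mrps-30 was at 0.0796 with TMM factors, mrps-18.C at 0.0501 with a pseudocount of 0.1, and with median centring mrps-30, mrps-5, mrpl-50 and mrps-11 were at 0.0573 to 0.177. In isp-1;sod-5 against wild type median centring put mrpl-10, mrpl-22, mrpl-48 and mrps-5 at 0.0626 to 0.131. TMM factors with isp-1;sod-5 replicate 3 left out put mrpl-10, mrpl-22 and mrpl-48 at 0.0870 to 0.126. With compared groups only mrpl-11, mrpl-10, mrpl-22, mrpl-48 and mrps-5 were at 0.0509 to 0.0832 there, and mrps-30 was at 0.0716 in isp-1;sod-3. The replicate block put mrps-14 and mrps-25 in isp-1, mrps-18.C, mrps-30 and mrps-5 in isp-1;sod-3, and mrpl-10 and mrpl-48 in isp-1;sod-5 at 0.0512 to 0.0676. With edgeR the adjusted p was 0.0524 for mrps-14 in isp-1, 0.0720 and 0.0756 for mrps-30 and mrps-5 in isp-1;sod-3, and 0.0585 to 0.126 for mrpl-22, mrpl-48, mrpl-50 and mrps-5 in isp-1;sod-5. With DESeq2 it was 0.0600 for mrps-5 in isp-1;sod-3, and 0.108 and 0.0620 for mrpl-22 and mrps-5 in isp-1;sod-5.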
